A study of Homo sapiens with 12 samples.

Results

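The 45 genes described here build the primary cilium or carry Hedgehog signals through it. They were taken by name from the count table, which held 12584 complete genes, and each of the 45 was found by its Ensembl identifier. They comprise 3 genes of the INTU complex, 9 of intraflagellar transport complex B, 5 of complex A and its adaptor, 2 transport motors, 7 of the BBSome and its recruitment, 7 of the transition zone, 5 of the centriole, basal body and satellites, 1 ciliary small GTPase, 1 gene of the inversin compartment and 5 of the Hedgehog pathway. RNA-seq had been performed on A549 and PC9, established human lung adenocarcinoma cell lines. Each line had been infected with a lentiviral pCDH vector for the homeobox transcription factor HOXC6 (A549-HOXC6, PC9-HOXC6) or with the empty vector (A549-NEO, PC9-NEO) and kept under neomycin. There were 3 libraries in each of the 4 groups, so that 12 libraries of poly(A) RNA were compared. The labels call the replicates independent without saying what was repeated, and the p-values measure the spread between these libraries.

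The primary cilium is a single, non-motile projection that grows from the mother centriole, and it serves as an antenna for signals outside the cell. Intraflagellar transport carries cargo along it, complex B outward with kinesin and complex A inward with dynein, while the transition zone at its base and the BBSome control which proteins enter and leave. In vertebrates the Hedgehog pathway runs through this organelle. When ligand binds its receptor, Smoothened gathers in the cilium and the GLI factors, held back by SUFU and KIF7 in the absence of ligand, become activators.

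Levels are given as normalized CPM, counts scaled for library size by TMM over the 12 libraries. A change is the log2 fold change of HOXC6 against NEO in 1 cell line, with its standard error (SE) and the Benjamini-Hochberg adjusted p of edgeR's quasi-likelihood test over all genes of the line. A member was called lower or higher where its adjusted p was under 0.05 and its change beyond 1 in size, the thresholds given in the study's methods. Calls at an adjusted p under 0.05 regardless of size were counted separately. Totals over the genes of the table ran from 1212053 to 3286577 counts per library, so that 3 counts, the least taken as detectable, equal 0.913 to 2.48 CPM (counting error only). HOXC6 itself was not analysed here, and the vector labels could not be checked on it. The third A549-HOXC6 library stood apart: 11195 genes had a count in it, against 9714 to 10331 in the other libraries, and the mean GC content of its counted transcripts was 53.1%, against 51.5% to 52.5%. Epithelial keratin KRT7 lay between 4576 and 9397 CPM in every library, whereas the lung lineage factor NKX2-1 did not exceed 3.96 CPM and EPCAM did not exceed 6.93 CPM in any A549 library. The summed level of the 7 lung epithelial markers in the table was 7789 to 8000 CPM for A549-NEO against 9219 to 11609 for A549-HOXC6, and 10840 to 11659 for PC9-NEO against 10701 to 10973 for PC9-HOXC6. KRT7 and KRT18 made up most of each sum. CDH1, on the same list, was at 177 to 190 CPM in A549-NEO and lower, at 117 to 162, in A549-HOXC6. In PC9, CDH1 was at 372 to 387 CPM with NEO and higher, at 458 to 483, with HOXC6. EPCAM went the other way in PC9, at 183 to 205 CPM with NEO and 147 to 166 with HOXC6. The 6 fibroblast markers summed to 19.5 to 77.5 CPM, mostly COL1A1, and the 3 leukocyte markers to 6.47 to 24.0, mostly CD68. CD68 was at 8.24 to 10.7 CPM in A549-NEO and higher, at 14.5 to 21.9, in A549-HOXC6. Its PC9 groups overlapped, at 5.39 to 12.6 CPM with NEO and 10.4 to 14.9 with HOXC6. Of the endothelial markers only VWF was in the table, at 0 to 2.14 CPM. The part of these shifts in the results was not tested.

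The promoters of cilium genes often hold an X-box, the site of RFX factors, and the 6 sequences below are those of the members on which the results turn: INTU, the gene with the largest fall, OFD1, ALMS1, AHI1 and IFT81, lower in both lines, and SMO, which did not exceed 1 count in any PC9 library. Each is the 250 bases before the RefSeq start on GRCh38.p14 (the counts were made on GRCh37), 5′ to 3′ on the gene's strand. Capitals mark GTTGCC, used here as the core of the X-box, or its complement GGCAAC. These letters are not in the windows printed for AHI1, IFT81 and SMO. In IFT81, GTTGCC begins at the first base after the printed window, and it is counted in the longer windows below. INTU lies at chr4:127632707-127632956 (+), OFD1 at chrX:13734498-13734747 (+), ALMS1 at chr2:73385508-73385757 (+), AHI1 at chr6:135497741-135497990 (-), IFT81 at chr12:110124107-110124356 (+) and SMO at chr7:129188383-129188632 (+).
INTU: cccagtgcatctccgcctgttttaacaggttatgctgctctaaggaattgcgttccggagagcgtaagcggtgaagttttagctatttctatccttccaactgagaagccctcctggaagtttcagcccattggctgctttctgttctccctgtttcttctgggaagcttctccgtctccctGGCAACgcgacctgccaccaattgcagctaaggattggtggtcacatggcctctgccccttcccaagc
OFD1: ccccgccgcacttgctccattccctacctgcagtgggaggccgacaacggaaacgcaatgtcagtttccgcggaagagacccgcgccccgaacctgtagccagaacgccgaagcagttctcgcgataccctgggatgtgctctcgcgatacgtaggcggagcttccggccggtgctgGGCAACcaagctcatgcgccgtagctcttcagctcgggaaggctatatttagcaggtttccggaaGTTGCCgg
ALMS1: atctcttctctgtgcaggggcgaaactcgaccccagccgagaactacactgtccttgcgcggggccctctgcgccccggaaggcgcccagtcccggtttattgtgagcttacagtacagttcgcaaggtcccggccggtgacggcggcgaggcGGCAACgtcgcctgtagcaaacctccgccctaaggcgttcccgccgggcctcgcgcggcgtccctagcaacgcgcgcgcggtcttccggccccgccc
AHI1: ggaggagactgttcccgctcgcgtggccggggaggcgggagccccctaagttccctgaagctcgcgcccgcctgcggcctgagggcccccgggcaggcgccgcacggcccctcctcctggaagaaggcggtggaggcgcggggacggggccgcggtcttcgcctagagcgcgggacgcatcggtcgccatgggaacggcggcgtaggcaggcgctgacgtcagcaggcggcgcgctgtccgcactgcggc
IFT81: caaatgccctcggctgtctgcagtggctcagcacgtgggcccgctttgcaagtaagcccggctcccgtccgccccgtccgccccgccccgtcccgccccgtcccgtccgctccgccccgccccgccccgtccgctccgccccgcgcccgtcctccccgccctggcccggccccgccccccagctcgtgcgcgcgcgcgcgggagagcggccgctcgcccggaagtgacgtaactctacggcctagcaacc
SMO: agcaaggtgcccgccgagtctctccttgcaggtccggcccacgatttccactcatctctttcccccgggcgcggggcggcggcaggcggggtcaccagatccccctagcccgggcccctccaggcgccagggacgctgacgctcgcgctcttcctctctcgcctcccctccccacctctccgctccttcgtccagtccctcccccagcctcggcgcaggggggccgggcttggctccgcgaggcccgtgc

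RefSeq promoter windows, 250 bases before to 50 after the start, were found for 40 of the 45 members. GTTGCC on either strand was in 18 of the 40 (45.0%) and in 12.2% of all 27303 promoters of that length. It was in 6 of the 10 members with a promoter that were lower in a cell line by the thresholds and in 12 of the other 30. OFD1 held the 6 letters on each strand, 8 and 73 bases before the start. TAATTA, a homeodomain core that reads the same on both strands, was in 0 of the 40 member promoters and in 4.98% of all promoters. The members' promoters had a median GC content of 63.0%, against 58.3% for all promoters, and a median of 26.0 CpG, against 14. A match describes these letters and is no measurement of binding.

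Per kilobase of the longest transcript, the median member stood at 4.98 CPM in A549-NEO and 3.86 in PC9-NEO. FUZ was the highest member on this scale in both lines, at 62.7 CPM per kilobase in A549-NEO and 40.7 in PC9-NEO. IFT20, which links complex B to the Golgi, followed in A549-NEO at 51.7 CPM per kilobase, and IFT52 followed in PC9-NEO at 30.2. INTU was among the lowest, at 0.704 and 0.494 CPM per kilobase in the NEO groups of A549 and PC9. Reads of antisense partners may enter these counts, since the strand setting of the counting is not given in the sources used here: 21 of the 45 members share exon bases with a gene on the other strand, whereas INTU, IFT81, IFT88, PCM1, ALMS1, GLI2 and SUFU share none. IFT80 also shares 1953 exon bases with a gene on its own strand, so that its counts are uncertain.

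In A549-HOXC6, 8 of the 43 members tested were lower by the thresholds (18.6%), and none was higher. Over all 8771 genes tested in A549, 5.51% were lower and 1.70% higher. The members had been chosen with earlier results of these data known, so the shares in either line are descriptive. The 8 were INTU, OFD1, AHI1, KIF3A, IFT81, PCM1, TTC21B and ALMS1. At any size 10 members were lower and 6 higher, where the shares of all genes were 20.6% and 18.9%. The median change of the members was -0.03 (log2) and that of all genes -0.00. ARL6 and GLI3 had too few counts to be tested in A549.

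In PC9-HOXC6, 8 of the 39 members tested were lower (20.5%) and again none was higher, where 3.56% of all 8419 genes were lower and 0.962% higher. The 8 were AHI1, PCM1, IFT80, ALMS1, IFT81, OFD1, ARL6 and IFT88. At any size 9 members were lower and 2 higher, where the shares of all genes were 14.2% and 13.3%. The members' median change was -0.19, and that of all genes -0.00. WDPCP, BBS5, CC2D2A, TTC21B, GLI3 and SMO were not tested in PC9 because of low counts.

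**Figure D1:**
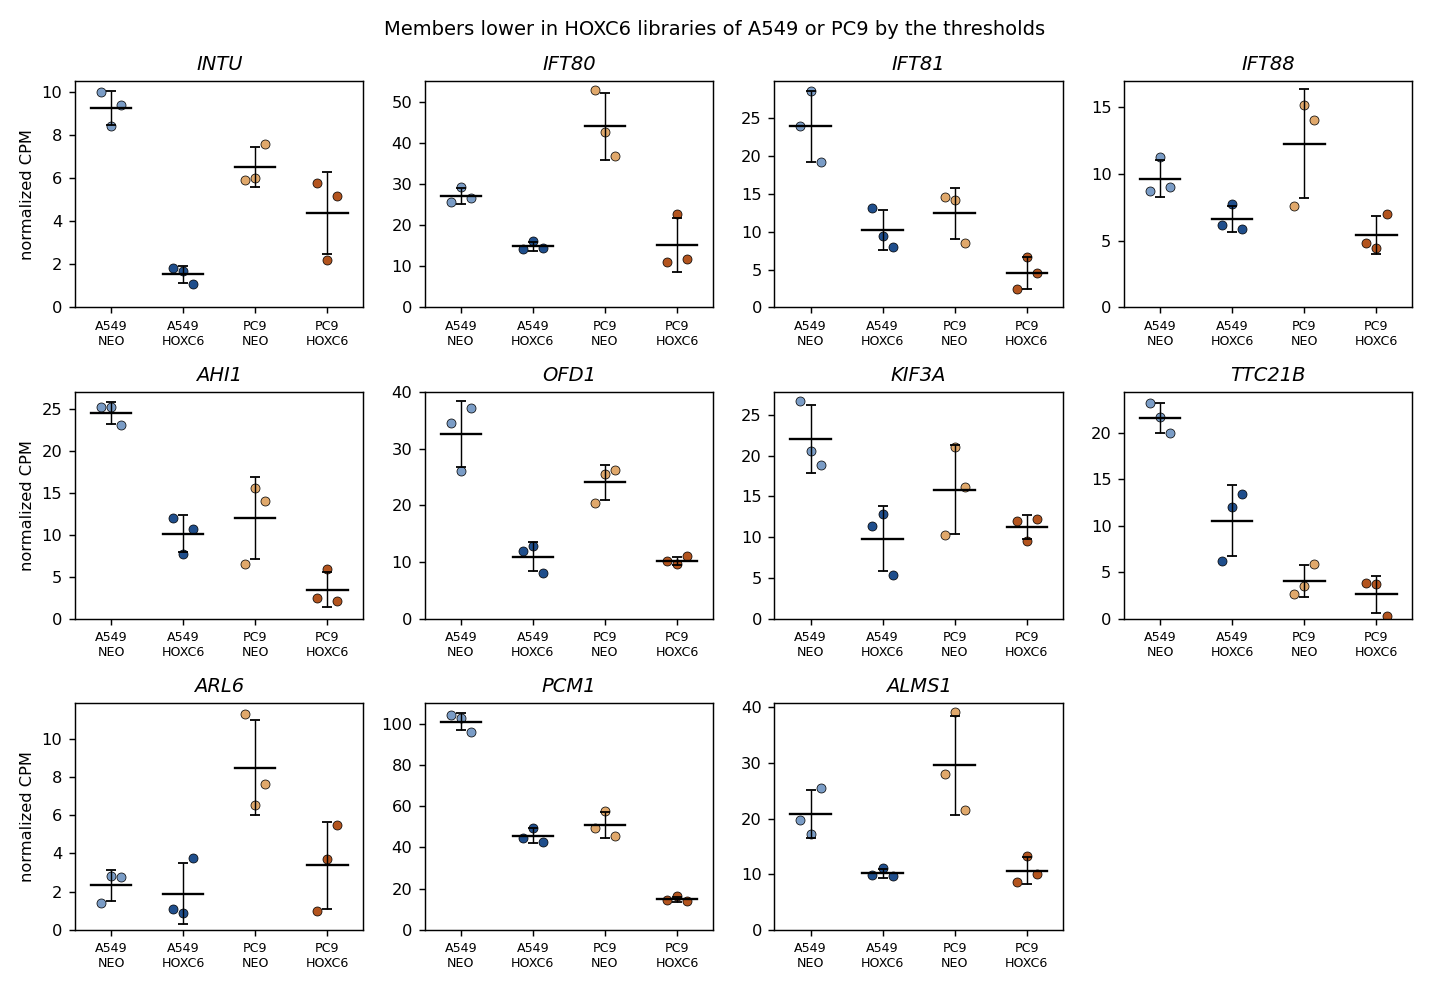
Normalized CPM (linear axis from 0) of the 11 members lower by the thresholds in A549 or PC9, in each of the 12 libraries. Points are libraries, horizontal lines the mean of 3 and bars the SD; INTU stands at 1.07 to 1.82 CPM in A549-HOXC6 and at 8.42 to 10 in A549-NEO.

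INTU encodes a planar cell polarity effector that, with FUZ and WDPCP, helps to dock the basal body and to recruit transport proteins to it. INTU stood at 10, 8.42 and 9.41 CPM in A549-NEO and at 1.82, 1.71 and 1.07 CPM in A549-HOXC6. The groups were far apart, but the A549-HOXC6 values stood for 5, 2 and 2 counts. Replicates 2 and 3 were thus under the floor of 3 counts, so that the size of the fold is uncertain. The level was 6.02-fold lower (log2 -2.59, SE 0.464, adjusted p = 6.95e-05, edgeR). In PC9 the INTU values were 5.93, 6.03 and 7.62 CPM with NEO and 5.78, 2.21 and 5.18 with HOXC6. All HOXC6 libraries lay below the NEO libraries, but the change of -0.48 (SE 0.401) did not pass the test (adjusted p = 0.402, edgeR). INTU has 16 exons on chromosome 4 (GRCh37, 128544426 to 128647892).

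FUZ, its partner, stood at 98.4, 113 and 114 CPM in A549-NEO and at 134, 162 and 196 in A549-HOXC6. Every HOXC6 library lay above the NEO libraries, and FUZ rose by 0.55 on the log2 scale (SE 0.119, adjusted p = 6.09e-04, edgeR), the opposite direction to INTU. FUZ shares 472 exon bases with genes on the other strand, AP2A1 among them. In PC9, FUZ was at 77.1, 55.3 and 78.7 CPM with NEO and at 102, 79.5 and 83.1 with HOXC6, a change of 0.33 (SE 0.131) that missed the test (adjusted p = 0.0623, edgeR). WDPCP, the third of the complex, was at 6.58, 10 and 8.24 CPM in A549-NEO, against 6.18, 9.40 and 10.2 in A549-HOXC6. These groups overlapped (log2 -0.04, SE 0.341, adjusted p = 0.934, edgeR). In PC9, WDPCP was at 6.47, 4.52 and 3.81 CPM with NEO and at 2.41, 2.21 and 4.26 with HOXC6, and it was not tested.

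Of the 9 complex B genes, 1 was lower in A549 (IFT81) and 3 in PC9 (IFT80, IFT81 and IFT88), where 5.51% and 3.56% of all genes were. IFT81, which binds tubulin cargo together with IFT74, stood at 23.9, 28.5 and 19.2 CPM in A549-NEO and at 13.1, 9.40 and 8.01 in A549-HOXC6. It was at 14.6, 14.1 and 8.47 CPM in PC9-NEO and at 2.41, 6.63 and 4.57 in PC9-HOXC6. The groups did not overlap in either line. IFT81 fell by 1.22 on the log2 scale in A549 (SE 0.257, adjusted p = 4.54e-04, edgeR) and by 1.48 in PC9 (SE 0.374, adjusted p = 0.00336, edgeR). Its partner IFT74 had log2 changes of 0.11 (SE 0.189) in A549 and -0.19 (SE 0.208) in PC9, neither past the test (adjusted p = 0.670 and 0.545, edgeR).

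IFT80, a peripheral complex B subunit mutated in skeletal ciliopathies, was at 25.6, 29.3 and 26.7 CPM in A549-NEO and at 14.2, 16.2 and 14.4 in A549-HOXC6. PC9 levels of IFT80 were 52.9, 42.7 and 36.8 CPM with NEO and 11.1, 22.8 and 11.9 with HOXC6. The HOXC6 libraries were lower throughout, in PC9 by 3.09-fold (log2 -1.63, SE 0.221, adjusted p = 1.63e-06, edgeR). In A549 IFT80 fell by 0.92 (SE 0.215, adjusted p = 0.00119, edgeR), short of the fold threshold. IFT88, needed for cilium assembly and a target of many mouse knockouts, was at 7.55, 15.1 and 14 CPM in PC9-NEO and at 4.82, 4.42 and 7 in PC9-HOXC6. The groups came close at 7.55 and 7 CPM. In A549 it was at 8.66, 11.2 and 9.02 CPM with NEO and at 6.18, 7.69 and 5.88 with HOXC6, and the change of -0.62 (SE 0.338) did not pass the test (adjusted p = 0.147, edgeR). In PC9 IFT88 fell by 1.10 (SE 0.344, adjusted p = 0.0164, edgeR), but the call was lost with DESeq2 (adjusted p = 0.0566) and without any 1 of PC9-NEO replicates 2 and 3 and PC9-HOXC6 replicates 1 and 2 (adjusted p from 0.0530 to 0.0963). IFT57, which was lower in A549 at any size (log2 -0.77, SE 0.226, adjusted p = 0.00761, edgeR), had a change of -0.19 (SE 0.134) in PC9 that did not pass the test. The other complex B genes, IFT20, IFT27, IFT52 and IFT172, ranged from -0.09 to 0.28 over both lines, and none passed the test.

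Among the complex A genes and their adaptor, TTC21B (the subunit also called IFT139) was lower in A549 and IFT122 was higher at any size. TTC21B was at 23.2, 21.7 and 20 CPM in A549-NEO and at 6.18, 12 and 13.4 in A549-HOXC6, without overlap. It fell by 1.17 on the log2 scale (SE 0.272, adjusted p = 0.00114, edgeR), and without A549-HOXC6 replicate 1 by 0.81 (adjusted p = 0.0251), short of the fold threshold. Its exons share 800 bases with the antisense gene TTC21B-AS1. In PC9, TTC21B was at 2.70, 3.52 and 5.93 CPM with NEO and at 3.85, 3.68 and 0.304 with HOXC6, and it was not tested. IFT122, a core subunit, was at 33.9, 42.5 and 34.9 CPM in A549-NEO and at 70.1, 66.6 and 79.6 in A549-HOXC6. All A549-HOXC6 libraries lay well above, and IFT122 rose by 0.92 (SE 0.146, adjusted p = 1.52e-05, edgeR). In PC9 it was at 64.7, 58.8 and 60.5 CPM with NEO and at 66.0, 58.9 and 61.5 with HOXC6, overlapping groups with a change of 0.03 (SE 0.125). TULP3, the adaptor that carries receptors into the cilium, rose in PC9 by 0.51 (SE 0.132, adjusted p = 0.00380, edgeR) and had a change of 0.22 (SE 0.155) in A549, not past the test. WDR19 and WDR35 ranged from -0.64 to -0.19 over both lines without passing it.

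KIF3A, a motor subunit of the kinesin that drives outward transport, was at 26.7, 20.5 and 18.8 CPM in A549-NEO and at 11.3, 12.8 and 5.34 in A549-HOXC6. The groups did not overlap, and KIF3A fell by 1.23 on the log2 scale (SE 0.280, adjusted p = 9.20e-04, edgeR). Without A549-HOXC6 replicate 3 the fall was 0.93 (adjusted p = 0.00591), short of the fold threshold. In PC9 it was at 10.2, 21.1 and 16.1 CPM with NEO and at 12, 9.57 and 12.2 with HOXC6, overlapping groups with a change of -0.46 (SE 0.281, adjusted p = 0.232, edgeR). DYNC2LI1, the light intermediate chain of the return motor, had changes of -0.77 (SE 0.350) in A549 and -0.43 (SE 0.328) in PC9, neither past the test.

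The BBSome, an adaptor that moves receptors out of the cilium, had 1 gene called, in PC9, where 3.56% of all genes were lower. ARL6, the small GTPase that brings the BBSome to membranes, was at 11.3, 6.53 and 7.62 CPM in PC9-NEO and at 0.963, 3.68 and 5.48 in PC9-HOXC6. Its HOXC6 libraries all lay below the NEO libraries, and the fall of 1.19 on the log2 scale (SE 0.439) just passed the test (adjusted p = 0.0416, edgeR). It was lost with DESeq2 (adjusted p = 0.102) and without any 1 of 5 of the 6 libraries, PC9-HOXC6 replicate 3 being the exception (adjusted p from 0.0558 to 0.216). In A549, ARL6 was at 1.39, 2.81 and 2.75 CPM with NEO and at 1.09, 0.854 and 3.74 with HOXC6, near the limit of detection. The other 6, BBS2, BBS4, BBS5, BBS7, BBS9 and TTC8, ranged from -0.83 (BBS7) to 0.21 (BBS5) in A549, and those tested in PC9 from -1.11 (BBS7) to 0.27 (BBS4). None of them passed the test in either line.

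In the transition zone, AHI1 (jouberin, which organizes ciliary gating) was the gene called in both lines. It was at 25.3, 25.3 and 23.1 CPM in A549-NEO and at 12, 7.69 and 10.7 in A549-HOXC6. In PC9 it was at 6.47, 15.6 and 14 CPM with NEO and at 2.41, 5.89 and 2.13 with HOXC6. Neither pair of groups overlapped, although the first PC9-NEO library was close to the second PC9-HOXC6 library. AHI1 fell by 1.26 on the log2 scale in A549 (SE 0.240, adjusted p = 1.50e-04, edgeR) and by 1.98 in PC9 (SE 0.425, adjusted p = 6.96e-04, edgeR). Its exons share 1044 bases with genes on the other strand. RPGRIP1L, a scaffold of the zone, fell by 0.97 in PC9 (SE 0.352, adjusted p = 0.0379, edgeR), with 10.2, 16.6 and 17.8 CPM in PC9-NEO, against 6.26, 15.5 and 4.57 in PC9-HOXC6, groups that overlapped. MKS1, of the Meckel syndrome module, was higher in A549 at any size (log2 0.82, SE 0.241, adjusted p = 0.00794, edgeR) and had a change of 0.27 (SE 0.194) in PC9, not past the test. TCTN3, CC2D2A, NPHP4 and TMEM67 ranged from -0.02 to 0.25 in A549, and those tested in PC9 from -0.55 to 0.12, without passing it.

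The centriole, basal body and satellite genes had the largest share of calls: OFD1, PCM1 and ALMS1, 3 of 5, were lower in both lines. Of all genes tested, 5.51% were lower in A549, 3.56% in PC9 and 1.45% in both lines. OFD1, a distal centriole protein whose removal from satellites precedes cilium formation, was at 34.6, 26.1 and 37.3 CPM in A549-NEO and at 12, 12.8 and 8.01 in A549-HOXC6. PC9 levels of OFD1 were 20.5, 25.6 and 26.2 CPM with NEO and 10.1, 9.57 and 11 with HOXC6. The groups were clearly apart in both lines. OFD1 fell by 1.63 on the log2 scale in A549 (SE 0.238, adjusted p = 4.46e-06, edgeR) and by 1.22 in PC9 (SE 0.242, adjusted p = 2.88e-04, edgeR). It shares 271 exon bases with GPM6B on the other strand.

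PCM1, the scaffold of the satellites that cluster around the centrosome, was at 104, 103 and 96.1 CPM in A549-NEO and at 44.3, 49.6 and 42.7 in A549-HOXC6. PC9 levels of PCM1 were 49.6, 57.8 and 45.3 CPM with NEO and 14.4, 16.2 and 14 with HOXC6. The libraries of each group were tightly spaced and the groups far apart. PCM1 was 2.31-fold lower in A549 (log2 -1.21, SE 0.130, adjusted p = 3.75e-08, edgeR) and 3.45-fold lower in PC9 (log2 -1.79, SE 0.184, adjusted p = 1.35e-08, edgeR). ALMS1, the centriolar protein mutated in Alström syndrome, was at 19.7, 17.2 and 25.5 CPM in A549-NEO and at 9.81, 11.1 and 9.62 in A549-HOXC6. In PC9 it was at 28, 39.2 and 21.6 CPM with NEO and at 8.67, 13.3 and 10 with HOXC6. The groups did not overlap. ALMS1 fell by 1.09 in A549 (SE 0.260, adjusted p = 0.00144, edgeR) and by 1.50 in PC9 (SE 0.255, adjusted p = 4.44e-05, edgeR), and in A549 without NEO replicate 3 by 0.92 (adjusted p = 0.0175), short of the fold threshold. CEP41 and CEP164, the latter of the distal appendages, had changes of 0.48 (SE 0.282) and 0.30 (SE 0.159) in A549 and of -0.17 (SE 0.205) and 0.21 (SE 0.192) in PC9, none past the test. ARL3 (-0.11 in A549, 0.26 in PC9), the GTPase that releases lipid-modified cargo, and INVS (-0.06 and -0.15), of the inversin compartment, did not pass it either.

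Of the 4 Hedgehog members tested in A549, SMO, GLI2 and SUFU rose at any size and none was past the thresholds, where 18.9% of all genes were higher at any size. SMO, the signalling receptor Smoothened, was at 81.7, 84.6 and 75.7 CPM in A549-NEO and at 114, 111 and 116 in A549-HOXC6. The A549-HOXC6 libraries all lay above, and SMO rose by 0.46 on the log2 scale (SE 0.112, adjusted p = 0.00198, edgeR). GLI2, the main activator, was at 66.8, 65.0 and 77.3 CPM in A549-NEO and at 96.6, 83.7 and 106 in A549-HOXC6, again without overlap, and rose by 0.42 (SE 0.124, adjusted p = 0.00805, edgeR). With each library left out in turn, the adjusted p of GLI2 in A549 reached 0.0522 (edgeR). SUFU, which binds and restrains GLI proteins, was at 31.5, 34.9 and 31.4 CPM in A549-NEO and at 52.3, 49.6 and 47.0 in A549-HOXC6. It rose by 0.57 (SE 0.158, adjusted p = 0.00531, edgeR). KIF7, the kinesin that organizes the ciliary tip, was at 42.6, 48.1 and 49.4 CPM in A549-NEO and at 55.9, 51.3 and 46.5 in A549-HOXC6, overlapping groups with a change of 0.10 (SE 0.149, adjusted p = 0.623, edgeR). GLI3, the main repressor, was counted 4, 3 and 1 times in the A549-NEO libraries, against 0, 2 and 0 times with HOXC6. Both groups were near or under the floor, so no fold is given.

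In PC9 the SUFU level was 50.2, 57.3 and 59.3 CPM with NEO and 71.8, 64.8 and 76.4 with HOXC6, and SUFU rose by 0.37 (SE 0.127, adjusted p = 0.0297, edgeR). All HOXC6 libraries lay above the NEO libraries, but with each library left out in turn the adjusted p of SUFU in PC9 reached 0.148 (edgeR). GLI2 was at 20, 18.6 and 13.5 CPM in PC9-NEO and at 20.7, 22.8 and 26.5 in PC9-HOXC6, without overlap but with a change of 0.46 (SE 0.222) that did not pass the test (adjusted p = 0.123, edgeR). KIF7 was at 32.4, 32.7 and 22.9 CPM with NEO and at 33.7, 21.4 and 20.1 with HOXC6, overlapping groups (log2 -0.22, SE 0.212, adjusted p = 0.470, edgeR). SMO had 0 counts in every PC9-NEO library and 1 count in the 3 PC9-HOXC6 libraries together, and GLI3 had 0 counts in all 6. The level of both in PC9 was therefore below 3 counts per library, which is 0.913 to 2.20 CPM.

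**Figure D2:**
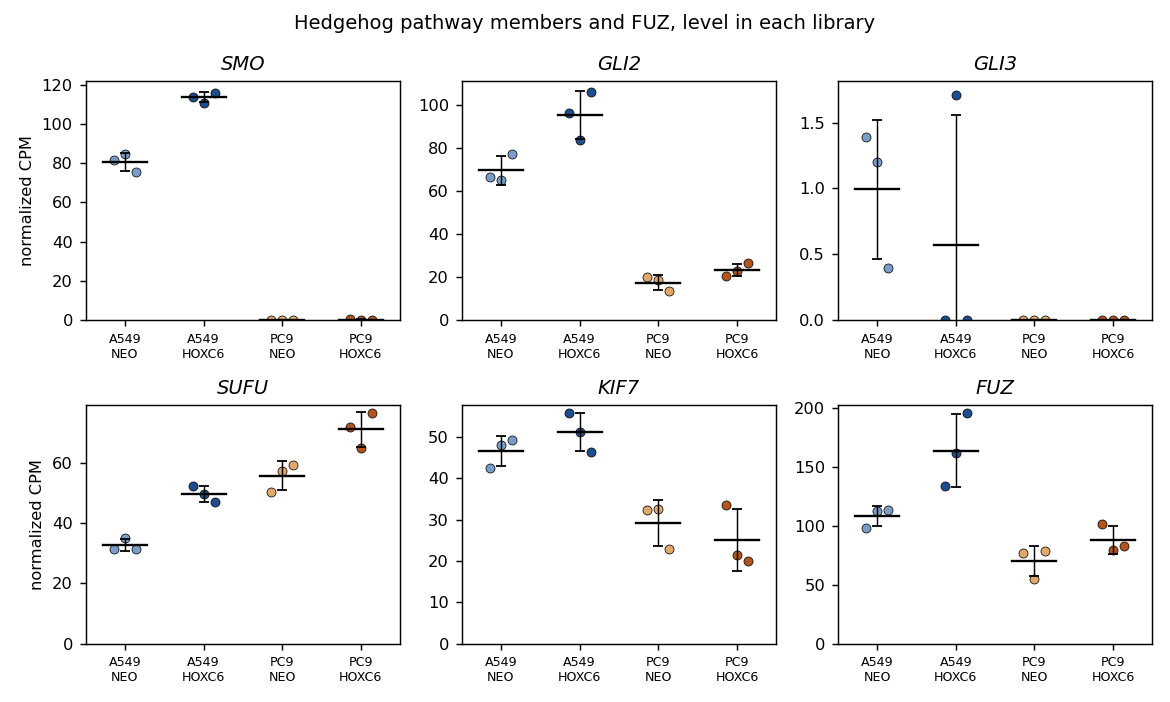
Normalized CPM (linear axes from 0) of the 5 Hedgehog members and FUZ in each of the 12 libraries, with the mean of 3 libraries (line) and the SD (bar). SMO lies between 75.7 and 116 CPM in the A549 libraries and at 0 to 0.482 in the PC9 libraries; SUFU is higher with HOXC6 in both lines.

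The next comparison asked whether the same members changed in both lines. Of the 38 members tested in both, 5 were lower by the thresholds in each line: IFT81, AHI1, OFD1, PCM1 and ALMS1. Over all 7954 genes tested in both, 1.45% were lower in both. The 5 made up 71.4% of the members lower in A549 and 71.4% of those lower in PC9, counted among the 38. Of all genes, 483 of 8771 tested were lower in A549, 300 of 8419 in PC9 and 115 of 7954 in both. With IFT80, 6 members were lower in both at any size, where 8.32% of all genes were. In all, 11 members were lower by the thresholds in at least 1 line, a count that was not made for all genes.

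**Figure D3:**
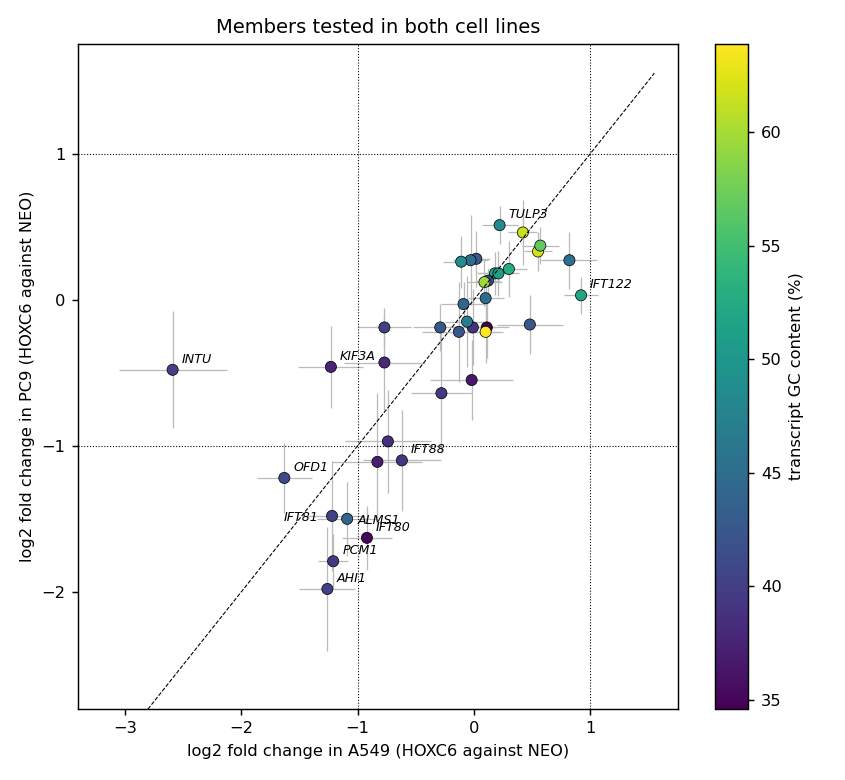
Log2 fold change of HOXC6 against NEO in A549 (horizontal) and PC9 (vertical) for the 38 members tested in both lines, with SE bars, colour giving transcript GC content (%), dotted lines the fold thresholds and the dashed line equal change. IFT81, AHI1, OFD1, PCM1 and ALMS1 sit in the lower left, INTU is far to the left at -2.59 and -0.48, and IFT122 lies to the right at 0.92 and 0.03.

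The difference between the lines was tested as an interaction over the 12 libraries (change in A549 minus change in PC9), with 44 members tested. INTU was the member past the thresholds, with a difference of -2.06 (SE 0.650, adjusted p = 0.0205, edgeR). Over all 9229 genes, 2.39% had a lower and 2.76% a higher change in A549. The INTU difference was -1.87 (adjusted p = 0.0551) without A549-HOXC6 replicate 3, -1.90 (adjusted p = 0.0625) without PC9-HOXC6 replicate 1 and -1.94 (adjusted p = 0.0731) without PC9-HOXC6 replicate 3, past the test in none of these 3. At any size 2 more members differed, where 8.46% of all genes had a lower and 10.9% a higher change in A549: IFT122 by 0.94 (SE 0.192, adjusted p = 3.66e-04, edgeR), and PCM1 by 0.63 (SE 0.223, adjusted p = 0.0415, edgeR), the latter falling more in PC9. For the other 41 members tested no difference passed, and KIF3A, called in A549 alone, had a difference of -0.73 (SE 0.407, adjusted p = 0.222, edgeR). IFT80, called in PC9 alone, had one of 0.75 (SE 0.324, adjusted p = 0.101, edgeR).

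These changes ran with the base composition of the transcripts. The median GC content of the longest transcript was 42.6% for the 43 members tested in A549 and 48.2% for all genes tested there, and 42.5% against 48.1% in PC9. The 11 members called lay between 33.5% (ARL6) and 44.2% (ALMS1). Genes of low GC content were lower in HOXC6 libraries as a whole. In the lowest quintile by GC content (30.2% to 40.5%), 17.8% of all genes were lower in A549 and 13.4% in PC9, and 6 of 17 members in A549 and 6 of 16 in PC9. In the second quintile, 6.60% of all genes and 2 of 12 members were lower in A549, and 3.53% and 2 of 11 in PC9. In the 3 upper quintiles no member was lower by the thresholds in either line. Few genes of any kind were: 0.861% to 1.32% of a quintile in A549 and 0.179% to 0.658% in PC9. In A549 the members of the highest quintile included FUZ, GLI2 and SMO, 3 of 5 higher at any size, where 33.2% of all genes in that quintile were.

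Over genes, which do not replicate each other, the Spearman correlation between GC content and log2 fold change was 0.66 for the 43 members in A549 and 0.71 for the 39 in PC9, and 0.52 for all genes in each line. The count-weighted GC content of the libraries was 51.5% to 51.8% for A549-NEO against 52.3% to 53.1% for A549-HOXC6, and 51.7% to 51.9% for PC9-NEO against 52.4% to 52.5% for PC9-HOXC6, so that the vector groups did not overlap. The part that library preparation had in this shift was not tested.

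**Figure D4:**
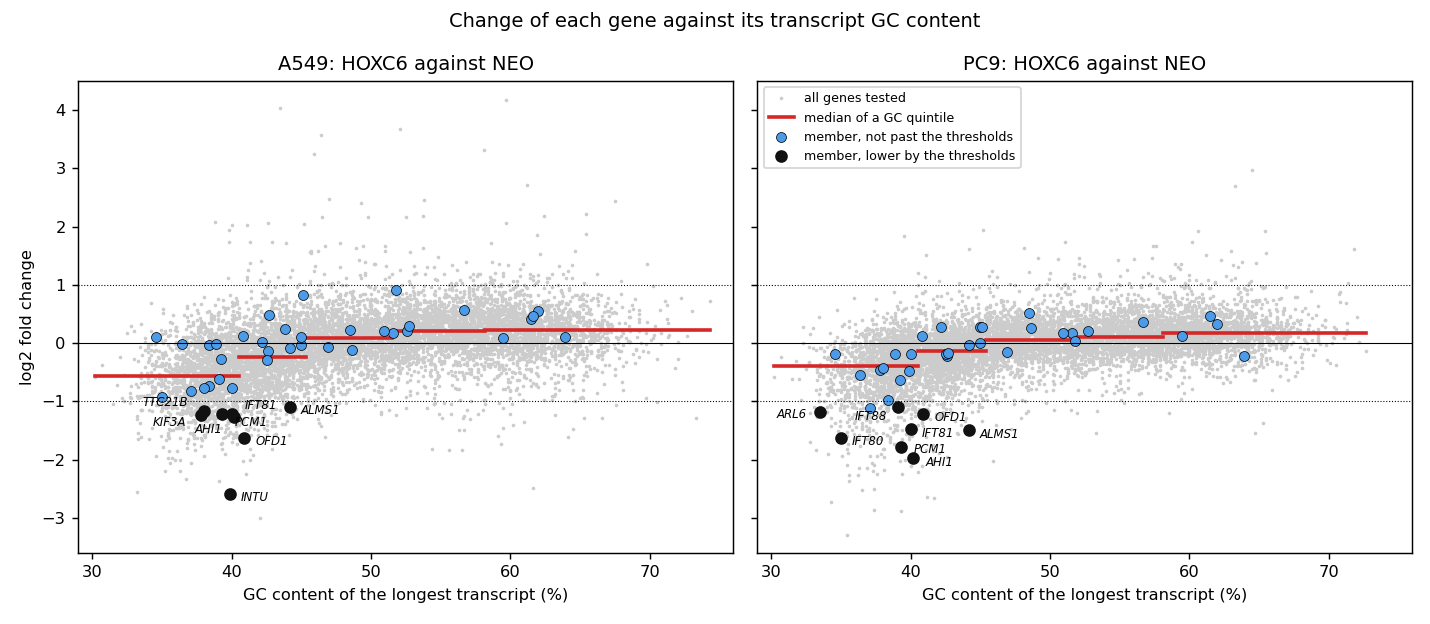
Log2 fold change of HOXC6 against NEO plotted against the GC content (%) of each gene's longest transcript, in A549 (left) and PC9 (right). Grey points are all genes tested, red lines the median change in each quintile of GC content, blue points members not past the thresholds and black points the members lower by them; all black points lie at or below 44.2% GC, where the grey points are also shifted down.

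When each library was corrected for the smooth trend of its counts with GC content and transcript length, 2 of the 43 members remained lower by the thresholds in A549, INTU (log2 -2.00, adjusted p = 0.00144, edgeR) and OFD1 (-1.20, adjusted p = 1.09e-04). The share over all genes was then 1.96%. At any size 6 members were lower, INTU, IFT81, AHI1, OFD1, PCM1 and ALMS1, and 9 were higher, where the shares of all genes were 14.3% and 16.6%. In A549 the calls of BBS2 (0.61, adjusted p = 5.90e-06), IFT74 (0.82, adjusted p = 0.00138) and CEP41 (0.78, adjusted p = 0.0301, edgeR) as higher were gained with the correction. In PC9, 5 of 39 stayed lower after the correction, PCM1 (-1.35, adjusted p = 2.71e-06, edgeR), AHI1 (-1.60, adjusted p = 0.00739), ALMS1 (-1.26, adjusted p = 5.57e-04), IFT81 (-1.17, adjusted p = 0.0240) and IFT80 (-1.06, adjusted p = 8.58e-04), where 1.50% of all genes were lower. At any size 6 were lower in PC9, these 5 and OFD1 (-0.91, adjusted p = 0.00648, edgeR), and 2 were higher, TULP3 and BBS2 (0.47, adjusted p = 1.44e-04), where the shares of all genes were 9.72% and 11.4%. The calls of IFT88 (-0.75), RPGRIP1L (-0.51) and ARL6 (-0.55) in PC9 were lost (adjusted p = 0.127, 0.333 and 0.416, edgeR). No member was lower by the thresholds in both lines after this correction, where 0.176% of all genes were. At any size IFT81, AHI1, OFD1, PCM1 and ALMS1 were still lower in both lines, 5 of 38 members, where 2.45% of all genes were. In A549 their corrected changes were -0.84, -0.73, -1.20, -0.62 and -0.79. With the GC content of the canonical transcript in place of the longest, OFD1 was lower in both (-1.42 in A549 and -1.07 in PC9). For KIF3A, TTC21B, IFT57 and IFT80 in A549 the corrected changes were -0.64, -0.47, -0.41 and -0.28, and none passed the test (adjusted p = 0.0649, 0.215, 0.152 and 0.335, edgeR). The rises of SMO, GLI2, SUFU and FUZ in A549 became 0.28, 0.34, 0.41 and 0.28, still past the test (adjusted p from 0.0158 to 0.0411), whereas the SUFU change in PC9 became 0.21 and did not pass (adjusted p = 0.245). After the correction, the Spearman correlation of GC content with the change was 0.26 for the members in A549 and 0.35 in PC9. For all genes it was 0.01 and -0.05. A trend with GC content thus remained among the members.

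The lines with the empty vector were compared next, A549-NEO against PC9-NEO. Line and any batch of the line cannot be told apart here. Of 44 members tested, 12 were higher in A549 and 5 lower, where 19.6% of all 9076 genes were higher and 16.4% lower. SMO differed most. It had 236, 211 and 193 counts in A549-NEO and 0 in every PC9-NEO library, at least 55.1-fold higher against a floor of 3 counts per library. BBS4, a BBSome subunit that binds satellites, was at 51.3, 54.5 and 50.2 CPM in A549-NEO and at 8.63, 11.1 and 8.89 in PC9-NEO, 5.59-fold higher (log2 2.48, SE 0.195, adjusted p = 5.37e-14, edgeR). TTC21B, at 20 to 23.2 CPM against 2.70 to 5.93, was 5.28-fold higher (log2 2.40, SE 0.299, adjusted p = 5.91e-09, edgeR). GLI2, at 65.0 to 77.3 CPM against 13.5 to 20, was 4.17-fold higher (log2 2.06, SE 0.165, adjusted p = 9.30e-14, edgeR). CC2D2A, a transition zone gene, was at 11.8, 8.42 and 14.5 CPM in A549-NEO and at 1.08, 3.52 and 4.66 in PC9-NEO (log2 1.88, SE 0.391, adjusted p = 5.88e-05, edgeR). None of these groups overlapped. The other members higher in A549-NEO were IFT20, INVS, BBS5, WDR35, AHI1, PCM1 and IFT81, with log2 differences of 1.01 to 1.60. The 5 lower were ARL6, IFT57, TMEM67, WDR19 and CEP41, with differences of -1.82 (ARL6), -1.20 (IFT57), -1.19 (TMEM67) and -1.03 (WDR19), while CEP41 only just passed the fold threshold. With the correction for GC content and transcript length 8 members were higher in A549-NEO, where 17.9% of all genes were, and WDR35 (0.95), AHI1 (0.83), PCM1 (0.81) and IFT81 (0.94) no longer passed the fold threshold.

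Further cilium and Hedgehog genes in the table, not among the 45, were counted in the same fits. Of 14 other transport, motor and BBSome genes, 1 was higher in A549, the dynein intermediate chain DYNC2I2 (log2 1.11, SE 0.113, adjusted p = 1.35e-08, edgeR), and none was lower, where 1.70% and 5.51% of all genes were. None of the 13 tested in PC9 was called. After the GC and length correction DYNC2I2 was at 0.88 in A549, short of the fold threshold, and TTC26, a complex B subunit, was past it (1.10, adjusted p = 0.0196, edgeR). Of 29 other transition zone, basal body and ciliogenesis genes, 2 were lower in A549 and 1 higher, and 2 of 27 were lower in PC9. The lower genes were 6.90% of the list in A549 and 7.41% in PC9, where 5.51% and 3.56% of all genes were lower. The 2 in A549 were CCP110, a cap on the mother centriole that blocks cilium growth (-1.63, SE 0.279, adjusted p = 3.89e-05, edgeR), and RFX3, an X-box factor (-1.55, SE 0.406, adjusted p = 0.00341, edgeR), while NEK8 was higher (1.18, SE 0.179, adjusted p = 8.00e-06, edgeR). The 2 in PC9 were PLK4, the kinase of centriole duplication (-1.34, SE 0.332, adjusted p = 0.00283, edgeR), and RAB23, a small GTPase that restrains Hedgehog signalling (-1.21, SE 0.384, adjusted p = 0.0175, edgeR). None of these 5 calls remained past the thresholds after the GC and length correction (CCP110 -0.96, RFX3 -0.86, NEK8 0.96, PLK4 -0.93 and RAB23 -0.79), and RFX3 and RAB23 no longer passed the test (adjusted p = 0.0946 and 0.153, edgeR). SCLT1, of the distal appendages, was then higher in A549 (1.35, adjusted p = 6.54e-12, edgeR). The median changes of this group without the correction were 0.06 in A549 and -0.01 in PC9.

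Of 23 other Hedgehog genes tested in A549 and 20 in PC9, none was past the thresholds. Of all genes, 5.51% were lower and 1.70% higher by them in A549, and 3.56% and 0.962% in PC9. PTCH1 was not in the table used. At any size 2 genes of the list were lower and 6 higher in A549, and 2 lower and 1 higher in PC9. In A549 the 6 were 26.1% of the list, where 18.9% of all genes were higher at any size and 20.6% lower, and in PC9 the shares of all genes were 13.3% higher and 14.2% lower. GLI1, a direct target often read as a sign of pathway activity, was counted 163, 112 and 111 times in the A549-NEO libraries, against 146, 47 and 119 times with HOXC6. Scaled for library size, GLI1 was at 56.5, 44.9 and 43.5 CPM in A549-NEO and at 53.0, 40.2 and 63.6 in A549-HOXC6, overlapping groups. In PC9 it had 1, 0 and 0 counts with NEO and 0, 2 and 7 with HOXC6. SHH, a ligand, did not exceed 15 counts in any library. Of the 17 motile cilium genes in the table, 7 were tested in A549, with no call, and 9 in PC9, of which 1, SPAG16, was lower (-1.04, SE 0.393, adjusted p = 0.0469, edgeR), where 3.56% of all genes were. The SPAG16 call was lost with the GC and length correction (-0.67, adjusted p = 0.245, edgeR). FOXJ1, the master regulator of motile cilia, had 0 to 2 counts in A549 libraries and 12 to 44 in PC9 libraries.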

How the data were processed

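Poly(A) RNA of 12 libraries, 3 in each of 4 groups, had been sequenced as paired reads of 150 bp from a strand-specific kit. Per the labels and the submitters' processing notes, reads were demultiplexed with bcl2fastq 2.19, aligned with HISAT2 2.1.0 to GRCh37.p13 and counted per gene with HTSeq 0.9.1. The annotation release and strand setting are not given in the sources used here. The deposited values are read counts per gene, not normalized and with replicates kept apart. The table used here held 12584 complete genes (1 incomplete line was left out), so totals, scaling and adjustment cover part of the genes. Totals were 1212053 to 3286577 counts per library.

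After filterByExpr and TMM scaling, groups were compared with edgeR 4.0.16 (R 4.3.3, glmQLFit and glmQLFTest) with Benjamini-Hochberg adjustment over all genes tested. Each line was fitted alone over 6 libraries without a replicate block, as was A549-NEO against PC9-NEO. The difference between lines was an interaction over 12 libraries. The SE of each change was derived from its F statistic. GC content and length came from the GENCODE annotation of GRCh37 (12463 of the genes). The correction for them fitted smooth trends per library (mgcv 1.9.3) and entered as offsets. DESeq2 1.42.0, the tool of the study's methods, was an alternative, and the others are named in the closing section. Tests were checked on simulated counts. The members, the gene lists and the tests were chosen with earlier results of these data known. Values in every library are given for members past the thresholds in a line or in the interaction. They are also given for the INTU complex, the Hedgehog members and the 5 largest differences between the NEO groups. IFT57, IFT122, RPGRIP1L, the GLI1, SHH and FOXJ1 counts, the epithelial genes and CD68 were singled out after their values were seen. Promoters are RefSeq sequences on GRCh38.p14. The 12 replicate pairs all differed beyond counting noise (chi-square divided by its degrees of freedom, 1.59 to 4.41). Genes outside the table used were not analysed here.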

Additional observations from a re-analysis of the deposited data

Results flagged for a closer look

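For 3 of the 44 members tested, the change with HOXC6 differed between A549 and PC9 at any size by the interaction test over 12 libraries (edgeR, Benjamini-Hochberg). Of all genes, 8.46% had a lower and 10.9% a higher change in A549 at any size. The INTU change was lower in A549 by -2.06 on the log2 scale (SE 0.650, adjusted p = 0.0205), with all 3 A549-HOXC6 libraries below all A549-NEO libraries, and likewise in PC9. The PC9 groups came close, at 5.93 and 5.78 CPM, and the PC9 change did not pass the test (adjusted p = 0.402). Without any 1 of the 3 libraries named above for INTU, its difference did not pass either (adjusted p up to 0.0731). The IFT122 change was higher in A549 by 0.94 (SE 0.192, adjusted p = 3.66e-04), with all 3 A549-HOXC6 libraries above the A549-NEO libraries and overlapping groups in PC9. The PCM1 change was less negative in A549 by 0.63 (SE 0.223, adjusted p = 0.0415), with the HOXC6 libraries below the NEO libraries in both lines. After the correction for GC and transcript length the differences were -1.97, 0.84 and 0.75 (adjusted p = 0.0246, 5.74e-04 and 0.0105). Groups of 3 were not screened for outlying libraries.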

How the results depend on the processing

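The number of members lower in A549-HOXC6 was 8, and 2 with each form of the correction for GC content and length (longest transcript, with the replicate block, or canonical transcript, the last chosen after seeing the data). At any size it was 10, and 6 with each form. In PC9-HOXC6 the 8 members lower became 5 with the correction and 5 with correction and block, and 4 with a minimum of 10 counts in every library. The 9 at any size became 5 with that minimum, where 31 members were tested. The 2 members higher at any size in PC9 became 1 with DESeq2, with library size only and with the canonical transcript. The minimum of 10 counts left 29 members in the interaction, with 0 past the thresholds (INTU not tested), and 9 of 36 between the NEO groups in place of 17. The members' median GC content was 42.6%, and 44.6% as a mean over all annotated transcripts, where the medians of all genes tested in A549 were 48.2% and 49.9%. Leaving out each library in turn gave 7 to 9 members lower in A549 (10 to 11 at any size), 0 to 1 higher (5 to 6 at any size), 6 to 8 lower in PC9 (6 to 8 at any size), 0 higher (1 to 3 at any size), 0 to 2 in the interaction and 14 to 17 between the NEO groups. Without A549-HOXC6 replicate 3, 8 members were lower in A549, with RPGRIP1L in place of KIF3A.

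Changes of sign were seen in members not past the test. WDPCP in A549 (-0.04) was 0.00 with the replicate block, 0.51 with the correction, 0.56 with correction and block, 0.33 with the canonical transcript, 0.01 in 1 model of 12 libraries, 0.12 without A549-NEO replicate 2 and 0.21 without A549-HOXC6 replicate 1, and lay between -0.20 and 0.21 over the libraries left out. KIF7 in A549 (0.10) was -0.03, -0.02 and -0.02 with the 3 corrections, and INTU in PC9 (-0.48) was 0.01 with the canonical transcript. The cause was not tested. RLE size factors and no filter on low counts moved none of these counts beyond 1.5 times.

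Equal replicate numbers went with no shared deviation (correlations from -0.0263 to 0.0375 in A549 and -0.0209 to 0.0423 in PC9), and the samples share only a number. With the replicate block, 8 members were lower in each line, and 1 differed between the lines and 16 between the NEO groups. At 0.913 to 2.48 CPM for 3 counts, depth limits ARL6, GLI3, BBS5, CC2D2A, WDPCP and TTC21B, which were not tested in at least 1 line.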
